A study of Rattus with 108 samples.

Results

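The muscle-enriched genes are 176 of the 32623 genes counted in rat muscle, skin and sensory ganglia (dorsal root ganglia, DRG, which hold the cell bodies of sensory neurons). A member had a median of at least 5 CPM (counts scaled to a common library total) in uninjured muscle. With 0.1 CPM added to each value, it also stood at least 8 times above both skin and DRG. Both conditions had to hold at 0 day in each of the surgical models. The rule found 321 genes when the lateral paw incision (LPI) libraries were used alone and 256 when the skin/muscle incision and retraction (SMIR) libraries were used alone. By the same rule turned round, 483 genes were skin-enriched and 899 were DRG-enriched. The members closest to the 8-fold limit had ratios of 8.07, 8.21 and 8.54, and the nearest genes left out had 7.83, 7.70 and 7.52. At the CPM limit the members with the lowest levels had 6.00, 6.09 and 6.11 CPM, and the nearest genes left out had 4.71, 4.51 and 4.44. High muscle levels at 0 day chose these genes, so every comparison with 0 day below is read as a description, while the comparisons among later time points use libraries the rule did not.

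LPI was made as a model of acute postsurgical pain and SMIR as a model of chronic postsurgical pain, with mechanical allodynia checked by von Frey testing. Each model had muscle of the incised area from 0 day and from 6 hours, 2 days and 10 days after surgery, and SMIR also from 32 days. Each group had 4 libraries, which makes 36 muscle libraries. The 0 day groups served as controls, and the sources used here give no sham operation, strain, age or sex for any group. Rats were perfused with saline before dissection, and the extraction protocol speaks of 3 pools of several animals at each time point, while the labels and files give 4 libraries per group. Whether a library holds the RNA of 1 rat or of a pool is not settled, so n counts libraries and p-values measure the spread between them.

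Skeletal muscle fibres are filled with sarcomeres, the contractile units in which myosin pulls on actin, and they carry the membrane systems that release calcium on excitation and the enzymes that supply ATP. The transcripts for these proteins are abundant in fibres and scarce in most other tissues, which is why muscle stands apart from skin and ganglia in RNA. After injury, damaged fibres are cleared by infiltrating leukocytes and new fibres form from satellite cells, the resident stem cells of muscle. In whole tissue, fewer fibres and less of a transcript in each fibre cannot be told apart. The files give Ensembl gene IDs without symbols, and no table used here pairs them, so the roles of single members are not given and the name muscle-enriched stands for the rule, not for named marker genes.

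In uninjured SMIR muscle the members were abundant and even between libraries. They took 30.5%, 29.1%, 28.5% and 27.3% of the counts of the 4 libraries, a mean of 28.8% ± 1.33 (SD, n = 4). In uninjured LPI muscle they took 0.175%, 5.87%, 6.61% and 16.1%, a mean of 7.20% ± 6.62 (SD, n = 4). The LPI libraries thus spread over almost the whole range seen in injured tissue, and rat 1 stood far below the other 3. In that library 78 members were under 1 CPM and 26 had no count, whereas in the other 3 libraries of its group at most 2 were under 1 CPM. Its share of skin-enriched genes was 0.112%, within the 0.0756% to 0.128% of its group. The counts and medians of members in LPI against 0 day, and of the model differences, are given with and without that library. Values of single members, numbers within 2-fold of 0 day, the order of loss, groups by abundance or length and the correlations between models include it.

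Per gene, the members' median 0 day level ran from 6.00 to 6655 CPM in LPI (median 62.7) and from 11.0 to 53555 CPM in SMIR (median 193). Per transcript length, the range was 1.61 to 4053 FPKM in LPI (median 24.5) and 2.36 to 20260 FPKM in SMIR (median 78.2), FPKM being fragment counts scaled to transcript length and library size. In SMIR 24 members were over 1000 FPKM, and in LPI 8 were. The 10 members of highest SMIR level held 63.8% of all member counts in uninjured SMIR muscle and 39.6% in uninjured LPI muscle, as group means. The median transcript length, taken as the ratio of CPM to FPKM, was 2.36 kb for members and 2.32 kb for all genes tested.

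Muscle libraries held 21792696 to 30355655 counts in LPI and 29218629 to 41654479 in SMIR. At this depth the widest 95% Wilson interval of a member share spanned 0.0306 percentage points, counting error only. Genes were tested with edgeR's quasi-likelihood test over all muscle libraries of a model, and a gene was called at a Benjamini-Hochberg adjusted p under 0.05 over all 16246 LPI or 16506 SMIR genes tested. All 176 members passed the filter on low counts in both models, which their 0 day level alone could ensure. In skin, members took 0.0276% to 0.153% of counts. In DRG the median library held 0.103% in LPI and 0.128% in SMIR, but the SMIR DRG library of rat 4 at 0 day held 14.9%, and its DRG-enriched share of 3.47% was the lowest of all DRG libraries. In it 175 of 176 members were above the other 3 libraries of the group and 159 were at least 10 times as high. The rule used group medians, so the value of that library did not itself enter the DRG level of those 175 members. As the highest of 4 it still moved the median upward. The member shares of its group were 0.0625%, 0.0648%, 0.345% and 14.9%, with a median of 0.205%. The effect on the list of members was not tested.

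At 6 hours after LPI the members' levels overlapped those of 0 day. They took 12.1%, 2.68%, 5.88% and 9.33% of counts, a mean of 7.51% ± 4.12 (SD, n = 4), which overlaps the 0 day range. The low library, rat 3, held 4.40% skin-enriched counts against 0.171% to 0.634% in the other 3; the part of other tissue in its share was not tested. Of 176 members, 1 was called higher and 0 lower, beside 20.6% of all tested genes called higher and 15.4% called lower. The 0 lower calls stood at 0 with an unadjusted p under 0.05 as well, and 4 members were higher at that level. The median log2 change was 0.34 (interquartile range 0.026 to 0.63), against 0.060 over all genes. Without rat 1 of 0 day it was -0.076, with 0 members called in either direction (3 higher and 1 lower at an unadjusted p under 0.05), so its sign rests on that library. The median also depended on scaling, with 0.25 under DESeq2's median-of-ratios (RLE) factors.

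At 6 hours after SMIR the share was 26.6%, 25.2%, 28.7% and 13.5%, a mean of 23.5% ± 6.83 (SD, n = 4). Rat 4 was the low library, and it also had the highest skin-enriched share of its group, 0.404% against 0.0871% to 0.161% in the others; the part of other tissue in the result was not tested. The median log2 change of the members was -0.57 (-0.87 to -0.087). Called lower were 4 members and called higher 8, beside 14.0% and 17.7% of all tested genes. The lower calls were 8 with DESeq2 and 10 when only these groups were fitted. In 45 members all 6 hour libraries were below all 0 day libraries after scaling, or 25.6% of members against 18.7% of tested genes.

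**Figure D1:**
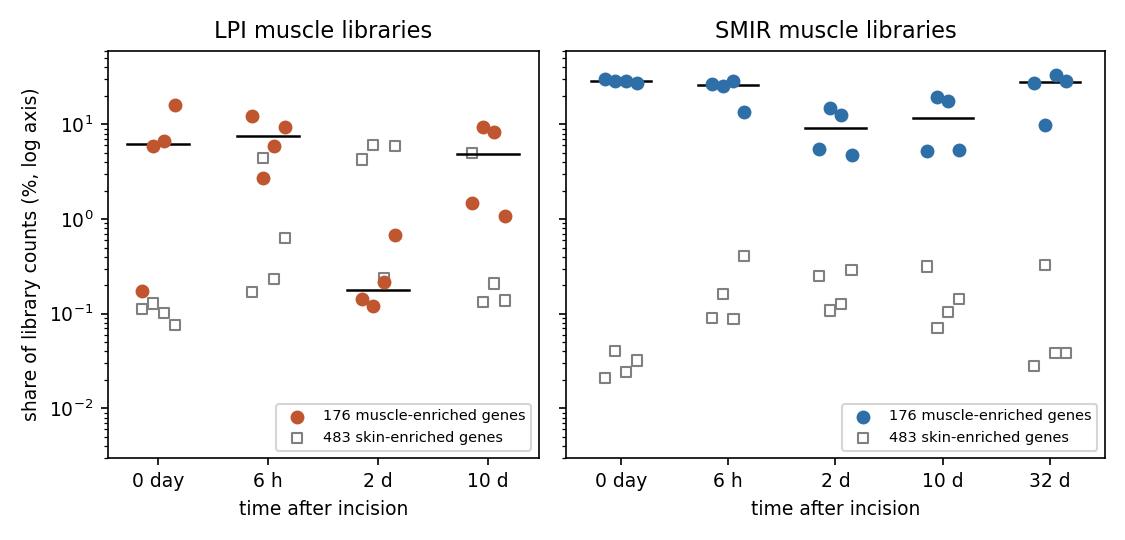
Share of each muscle library's counts taken by the 176 muscle-enriched genes (filled circles) and the 483 skin-enriched genes (open squares), in percent on a log axis, by time after incision. Horizontal lines are medians of the 4 libraries of a group for the muscle-enriched genes. In LPI the members' share lies between 0.120% and 0.685% at 2 days, where rat 1 of 0 day (0.175%) also lies, and in SMIR it is lowest at 2 and 10 days.

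At 2 days after LPI the members were close to absent. Their share was 0.143%, 0.120%, 0.217% and 0.685%, a mean of 0.291% ± 0.266 (SD, n = 4), or 4.04% of the 0 day mean. All 4 libraries were below 3 of the 4 libraries at 0 day, and rat 1 of 0 day lay among them. In the 4 libraries 91, 79, 51 and 24 members were under 1 CPM, and 30, 23, 17 and 10 had no count. Of 176 members 155 were called lower and 0 higher, beside 18.7% of all tested genes called lower and 21.8% called higher. The median log2 change was -4.92 (-5.90 to -3.82), against 0.013 over all genes. At least 8-fold lower were 152 members, and 162 without rat 1 of 0 day. The skin-enriched share in the same libraries was 4.26%, 6.03%, 0.238% and 5.88%, against 17.1% to 26.9% in LPI skin itself. The library with the least of it, rat 4, had a member share of 0.217%. The DRG-enriched share was 1.36% and 1.55% in rats 1 and 5 and 0.452% and 0.554% in rats 3 and 4, against 0.444% to 0.522% at 0 day. The part of either in the result was not tested.

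The fall between 6 hours and 2 days does not use the 0 day libraries. Between these times 165 of 176 members fell in LPI and 0 rose, beside 17.5% of tested genes that fell and 14.0% that rose, with a median log2 change of -5.32 (-6.20 to -4.20). In 165 members all 2 day libraries lay below all 6 hour libraries, or 93.8% of members against 17.0% of tested genes. Members chosen from the SMIR libraries alone, which does not use any LPI library, gave the same picture in LPI. Of 253 such genes tested, 210 were lower at 2 days than at 0 day (83.0%) and 224 changed between 6 hours and 2 days, all lower (88.5%). Without rat 1 of 0 day, 170 members were called lower at 2 days against 0 day, beside 17.4% of tested genes. The median then was -5.34, and 163 members had all libraries below those of 0 day, beside 22.7% of tested genes; with that rat the last count was 19, beside 16.7%.

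Among the members, 6 had no count in any of the 4 LPI libraries at 2 days. Against a floor of 3 counts over the group they were at least 172-fold to at least 529-fold lower than at 0 day. With these members held at that floor the median over the 176 was -4.92. It could not move, since their log2 bounds of -7.43 to -9.05 all lie below it.

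In SMIR the members also fell at 2 days. The share was 5.50%, 14.8%, 12.6% and 4.80%, a mean of 9.43% ± 5.03 (SD, n = 4), or 32.7% of the 0 day mean. All 4 libraries lay below all 4 libraries of 0 day, and they formed a higher and a lower pair, with rats 1 and 6 low. The low pair also had the higher skin-enriched shares, 0.249% and 0.292% against 0.108% and 0.126%, and all 4 had more DRG-enriched RNA (0.789% to 1.43%) than at 0 day (0.219% to 0.250%); the part of either in the result was not tested. Of 176 members 127 were called lower and 1 higher, beside 23.0% of all tested genes called lower and 25.1% called higher. The median log2 change was -2.42 (-2.93 to -1.61), against 0.086 over all genes. In 145 members all 2 day libraries were below all 0 day libraries, or 82.4%, beside 27.4% of tested genes.

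Between 6 hours and 2 days 92 members fell in SMIR and 0 rose, beside 18.5% of tested genes that fell and 19.4% that rose, with a median log2 change of -1.83 (-2.31 to -1.39). In 58 of 176 members all 2 day libraries lay below all 6 hour libraries, beside 15.2% of tested genes. The count varied from 44 without rat 6 of 2 days, and 53, 54 and 60 without rats 1 of 6 hours, 1 of 2 days and 3 of 6 hours, to 121. Genes chosen from the LPI libraries alone changed in 145 of 315 cases between these times in SMIR, 107 lower and 38 higher. At 2 days against 0 day 163 of those 315 were lower and 34 higher.

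**Figure D2:**
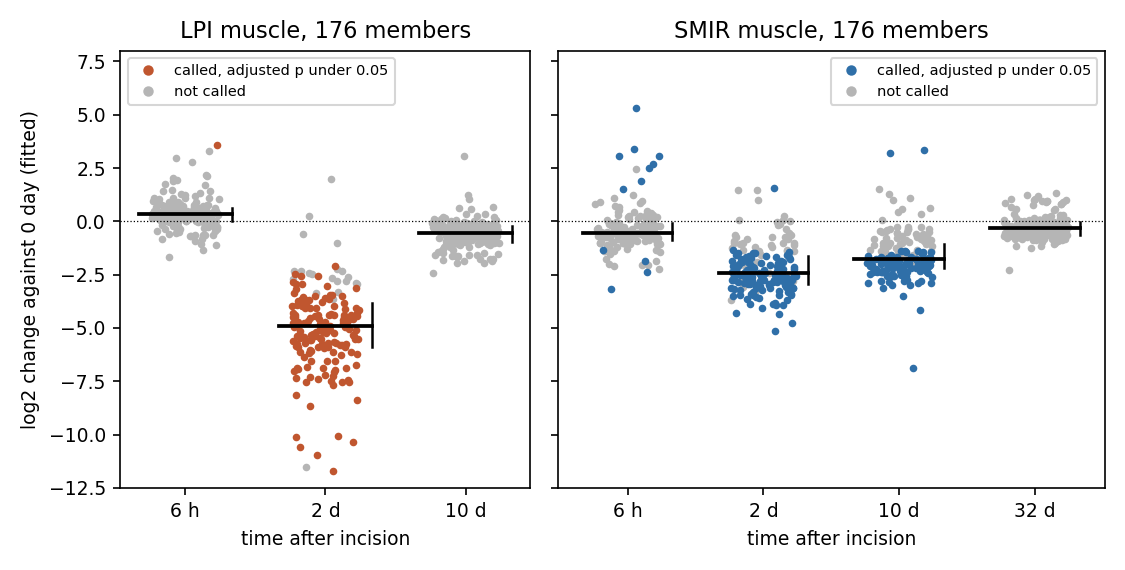
Fitted log2 change of each of the 176 members against the 0 day group of its model, by time after incision; coloured points were called at an adjusted p under 0.05 (edgeR) and grey points were not. Horizontal lines are medians and vertical lines interquartile ranges over members. The LPI members lie at a median of -4.92 at 2 days and -0.55 at 10 days, and the SMIR members at -2.42, -1.78 and -0.30 at 2, 10 and 32 days.

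At 10 days after LPI the members had returned toward the 0 day range. Their share was 1.47%, 9.34%, 8.33% and 1.08%, a mean of 5.05% ± 4.39 (SD, n = 4). The libraries formed 2 high and 2 low ones, with rats 4 and 7 low, and the library of rat 4 held 5.02% skin-enriched counts against 0.134% to 0.209% in the other 3. Between 2 and 10 days 125 members rose and 0 fell, beside 13.0% of tested genes that rose and 14.9% that fell, with a median log2 change of 4.20 (3.28 to 5.36). In 118 members all 10 day libraries lay above all 2 day libraries, or 67.0%, beside 14.4% of tested genes. The count of rises was 61, 62, 69, 81 and 83 without rat 1 of 2 days, rat 5 of 10 days, rat 3 of 2 days, rat 4 of 2 days and rat 6 of 10 days, in that order. Against 0 day edgeR called 0 members at 10 days (0 at an unadjusted p under 0.05, and 0 by DESeq2), beside 0.148% of tested genes called lower and 0.172% called higher. The median was -0.55 (-0.97 to -0.24). It turned to 0.18 without rat 4 of 0 day, and it was -1.39 without rat 5 of 10 days and -0.96 without rat 1 of 0 day. Without rat 1 of 0 day, 11 members were lower at an unadjusted p under 0.05 and 0 after adjustment. The median standard error of a member's log2 change was 1.15. With all libraries 39 members were at least 2-fold lower, down to a log2 change of -2.42, and none of them was called. This number was 86 without rat 1 of 0 day, again with 0 called lower. Remaining losses of 2-fold, and losses well beyond it, were thus not detectable for single members. With rat 1 of 0 day included, 134 members were within 2-fold of 0 day at 10 days by the fitted change. The same fit had 2 such members at 2 days and 148 at 6 hours.

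At 10 days after SMIR most members were still low. Their share was 5.21%, 19.4%, 17.9% and 5.42%, a mean of 12.0% ± 7.72 (SD, n = 4), again a high and a low pair, here with rats 3 and 6 low. The skin-enriched share of the low pair was 0.315% and 0.143%, and that of the high pair 0.0705% and 0.104%. The DRG-enriched share was 1.08% and 0.655% in the low pair and 0.406% and 0.541% in the high pair, all above the 0 day range of 0.219% to 0.250%. The part of either in the result was not tested. Of 176 members 106 were called lower than at 0 day and 2 higher, beside 20.9% and 22.2% of tested genes, with a median log2 change of -1.78 (-2.18 to -1.06). In 123 members, or 69.9%, all 10 day libraries lay below all 0 day libraries, beside 25.0% of tested genes. The count of lower calls was 45 without rat 3 of 10 days and 46 without rat 6. Of 315 genes chosen from the LPI libraries alone, 122 were lower at 10 days (38.7%) and 47 higher. Between 2 and 10 days 3 members rose and 0 fell, beside 2.97% of tested genes that rose and 3.50% that fell; DESeq2 called 9 higher and 2 lower. In 7 members, or 3.98%, all 10 day libraries lay above all 2 day libraries, beside 9.75% of tested genes. The median log2 change was 0.57 (0.021 to 1.06), with 133 of 176 members above 0.

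At 32 days after SMIR the share was 27.7%, 9.96%, 32.9% and 28.7%, a mean of 24.8% ± 10.2 (SD, n = 4). Of the 4 libraries 3 lay within or near the 0 day range of 27.3% to 30.5%, and rat 3 was low, with 175 of 176 members below their 0 day mean. That library also had the highest skin-enriched share of its group, 0.325% against 0.0278% to 0.0384%, and the part of other tissue in it was not tested. Between 10 and 32 days 45 members rose and 2 fell, beside 14.6% and 12.8% of tested genes, with a median log2 change of 1.50 (0.85 to 1.82). In only 3 members, or 1.70%, were all 32 day libraries above all 10 day libraries, below the 8.72% of tested genes. Fitted on these groups alone 4 members rose, and DESeq2 called 86. The count of rises also moved with single libraries: the rises were 105 without rat 3 of 32 days and 95 without rat 4 of 10 days. They were 6 and 7 without rats 6 and 3 of 10 days, and 9, 20 and 22 without rats 4, 1 and 5 of 32 days. Between 2 and 32 days 110 members rose and 1 fell, beside 19.1% of tested genes that rose and 17.8% that fell, with a median of 2.09 (1.44 to 2.64). In 24 of the 176 members, or 13.6%, all 32 day libraries lay above all 2 day libraries, close to the 12.3% of tested genes. Those rises were 62 without rat 6 of 2 days, and 72 without rat 1 of 2 days, without rat 1 of 32 days or with these groups alone in the fit. Against 0 day edgeR called 0 members at 32 days (1 at an unadjusted p under 0.05, and 0 by DESeq2), beside 0.0121% of tested genes called lower and 0.0727% called higher. In 23 members, or 13.1%, all 32 day libraries were still below all 0 day libraries, beside 5.06% of tested genes. The median was -0.30 (-0.63 to -0.039), and 0.023 without rat 3 of 32 days.

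The time of the lowest level and the times of the calls were read per member. Call patterns were not compared between models by a test, and the median standard error at 10 days was 1.15 in LPI and 0.67 in SMIR. In LPI the fitted change was lowest at 2 days for 174 of 176 members, 155 were called lower at 2 days only, and 21 were never called lower. In SMIR the lowest change came at 2 days for 130 members, at 10 days for 40, at 32 days for 4 and at 6 hours for 2. When group medians of log2(CPM + 0.1) without further scaling were used instead, the lowest value fell at 10 days for 66 members. By calls in SMIR, 94 members were lower at 2 and 10 days and at no other time, 29 at 2 days only, 9 at 10 days only, 3 at 6 hours, 2 days and 10 days, 1 at 6 hours and 2 days, and 40 at no time. A member's deepest log2 change was at a median of -4.92 in LPI and -2.45 in SMIR (range -6.88 to 0.56). In LPI the range over members with counts at 2 days was -10.12 to -0.33, and the 6 members at 0 have only the bounds given above. The 127 members called lower at 2 days in SMIR stood at medians of -0.67, -2.66, -1.96 and -0.42 at 6 hours, 2, 10 and 32 days. The 155 called lower in LPI stood at medians of 0.31, -5.15 and -0.67 at 6 hours, 2 and 10 days. In SMIR 131, 18, 36 and 163 of 176 members were within 2-fold of 0 day at the 4 times.

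**Figure D3:**
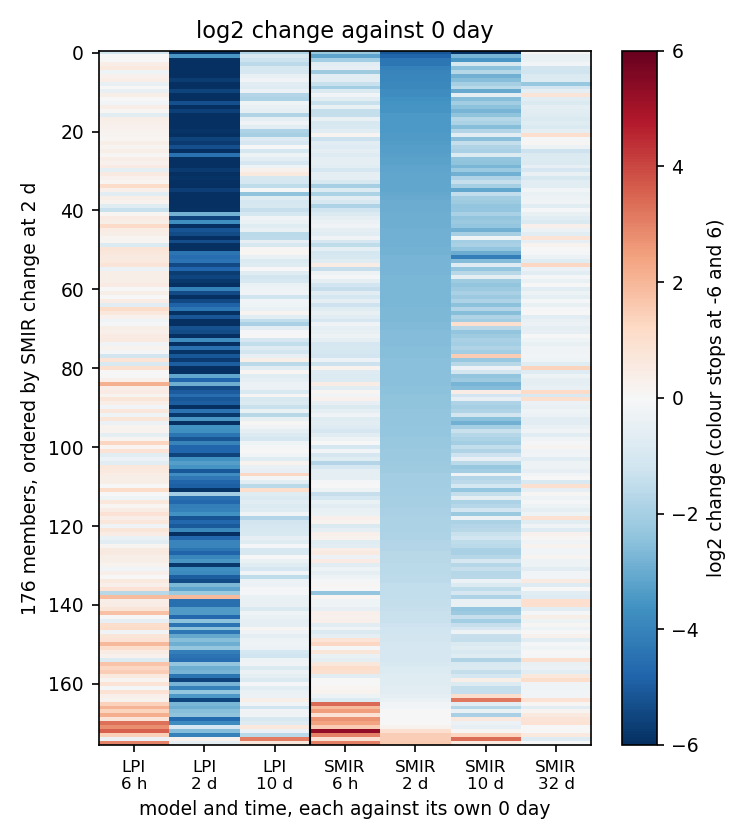
Fitted log2 change of the 176 members (rows, ordered by their SMIR change at 2 days) against the 0 day group of the same model (columns, model and time); colour stops at -6 and 6. The LPI loss stands in the 2 day column and the SMIR loss in the 2 and 10 day columns. At 6 hours 135 of the 176 members are above 0 in LPI (median 0.34) and 38 in SMIR, among them a small block of rows at the foot. A fit without rat 1 of 0 day, not drawn here, has 69 above 0 in LPI at 6 hours.

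Depth at 2 days differed to a small extent between members grouped by abundance or by length, without a steady order. In both models the middle group had the shallowest median fall by either grouping. In LPI at 2 days the 59 members with the highest 0 day CPM in SMIR had a median of -5.49, against -4.71 in the 59 lowest and -4.22 in the 58 between them. In SMIR the same groups stood at -2.73, -2.29 and -2.21. By transcript length, the 59 shortest members (up to 1.58 kb) had medians of -5.49 in LPI and -2.76 in SMIR. The 58 of middle length had -4.40 and -1.75, and the 59 longest had -4.87 and -2.45. These medians are descriptions. The 0 day CPM in SMIR is also the baseline of the SMIR change, so a deeper SMIR fall in the most abundant group can partly follow from the grouping. Over tested genes that are not members, the rank correlation of a library's deviations with transcript length ran from -0.107 to -0.0607 at 0 day and from 0.00164 to 0.117 at 2 days in SMIR, and from -0.111 to 0.0479 and -0.129 to 0.0710 in LPI; the part of such a trend in these medians was not tested.

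The lists of members called lower at 2 days overlapped between models. Of the 155 called lower in LPI and the 127 called lower in SMIR, 122 were called in both, which is 78.7% of the LPI and 96.1% of the SMIR members. Of all 176 members 88.1% were called lower in LPI and 72.2% in SMIR, so shares of this order come with the counts themselves. Across the 176 members, which are not independent replicates and share library sets, Pearson's r between the LPI and SMIR changes at 2 days was 0.67 and Spearman's rho 0.73. At 6 hours r and rho were 0.72 and 0.62, and at 10 days 0.16 and -0.05. The members that fell between 6 hours and 2 days in both models numbered 88, or 53.3% of the LPI and 95.7% of the SMIR members that fell, where 93.8% and 52.3% of all members fell.

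The difference between the models' changes was tested as an interaction over all 36 muscle libraries and 17271 genes. LPI and SMIR muscle came from different incised areas and different animals, and possibly from different batches. What part of a difference belongs to the type of surgery was not tested, since this comparison cannot separate it from those factors. At 2 days the SMIR change minus the LPI change had a median of 2.50 (1.86 to 3.29), above 0 in 172 of 176 members. After adjustment 12 members differed with the SMIR change higher and 1 with it lower, beside 5.33% and 7.71% of tested genes; unadjusted, 57 and 1 did so at p under 0.05. The share of members called higher was 6.82%, close to the background. Without rat 1 of the LPI 0 day group 35 were called higher, beside 4.50% of tested genes, and without rat 5 of LPI 2 days 33 were. Without rat 6 of SMIR 2 days and rat 3 of LPI 0 day 14 and 9 were called higher, and without any 1 of the other 12 libraries 2 to 7 were. DESeq2 called 45 higher and 1 lower, and edgeR without the low-count filter 4 and 1. At 6 hours the median difference was -0.87 (-0.36 without rat 1 of LPI 0 day) and edgeR called 0 members, beside 2.45% of tested genes higher and 2.56% lower. At an unadjusted p under 0.05 it had 0 higher and 2 lower, and DESeq2 called 1. At 10 days the median was -1.05 (-0.63 without that rat) and edgeR called 0, beside 7.80% of tested genes higher and 6.86% lower. At an unadjusted p under 0.05 it had 0 higher and 7 lower, and DESeq2 called 3.

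**Figure D4:**
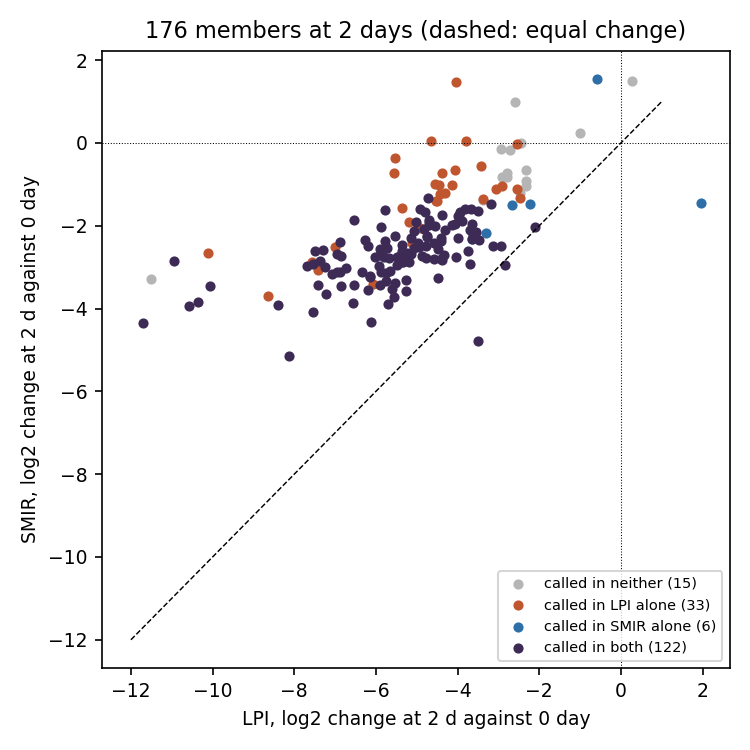
Fitted log2 change at 2 days against 0 day of each of the 176 members in LPI (horizontal) and SMIR (vertical), coloured by the models in which it was called; the dashed line marks equal change. Most points lie above the line, with 122 members called in both models.

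Members did not all fall alike. To compare members with each other, the SMIR libraries were scaled to the members alone, which sets their typical change to about 0. On that scale 41 members were higher and 29 lower than the other members at 2 days against 0 day, beside 79.0% of all tested genes higher and 0.491% lower. The 41 had a median fitted change of -0.91 without that scaling, and 7 of them were called lower in the ordinary fit. The 29 had a median of -3.52, and all 29 were called lower. The 29 were more abundant at 0 day (median 379 CPM, against 91.9 for the 41) and shorter (median 1.40 kb, against 2.40 kb). The 0 day libraries were also the baseline by which both lists were chosen, so the difference in abundance can partly follow from the choice. At 10 days 28 were higher and 18 lower on this scale, beside 76.2% and 0.515% of tested genes. At 6 hours 12 were higher and 3 lower, beside 4.16% and 0.242%, and at 32 days edgeR called 0 (4 higher and 1 lower at an unadjusted p under 0.05; DESeq2 also 0). In LPI the same scaling called 1 member higher at 2 days with all libraries, beside 3.99% of tested genes. Without rat 1 of 0 day it called 20 higher and 26 lower, beside 94.7% and 0.236% of tested genes. Of those 20, 15 were among the 41 of SMIR (75% of the LPI and 36.6% of the SMIR members), and of the 26, 13 were among the 29 (50% and 44.8%). Of all members the 41 and the 29 were 23.3% and 16.5%, and the 20 and the 26 were 11.4% and 14.8%. No member was called in opposite directions. The LPI lists depend on the library left out: the calls at 2 days ran from 0 to 46, with 0 without rat 2 or rat 3 of 0 day.

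A pair of gene IDs is printed for the members that were called lower at 2 days in both models and came back. The pool was the 127 members with at least 10 counts in every 0 day library. The rule took the deepest falls among the 89 of them called lower in both models at 2 days. The largest called rises from 2 days to the last time point picked the same 2. In SMIR ENSRNOG00000006365 was not among the deepest falls, with -2.86 at 2 days, where 38 of the 176 members were at least 8-fold lower. The calls at 2 days and from 2 days to the last time point were conditions of the choice. Their p-values below are therefore descriptions.

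ENSRNOG00000006365 had 0.446, 11.5, 6.41 and 22.0 CPM in the LPI libraries at 0 day. It had 5.96, 1.67, 3.69 and 5.12 CPM at 6 hours, 0 in all 4 libraries at 2 days, and 1.95, 11.8, 6.20 and 1.05 CPM at 10 days. All 2 day libraries were below every other LPI library. Against the floor of 3 counts over the group it was at least 314-fold lower at 2 days than at 0 day and at least 137-fold lower than at 6 hours (edgeR adjusted p = 0.00128 and 0.0019).

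In SMIR ENSRNOG00000006365 had 23.5, 18.1, 32.5 and 27.5 CPM at 0 day and 7.81, 13.8, 12.1 and 1.96 CPM at 6 hours. At 2 days it had 6.20, 9.54, 9.48 and 0.983 CPM, at 10 days 3.83, 17.5, 12.6 and 8.06 CPM, and at 32 days 45.8, 11.1, 22.5 and 44.9 CPM. From 6 hours to 10 days every library was below every 0 day library, and at 2 days the fall was 2.86 on the log2 scale (-2.86 ± 0.79 SE, adjusted p = 0.00664). From 2 to 32 days it rose by 3.06 ± 0.79 (SE, adjusted p = 0.00708), with all 32 day libraries above all 2 day libraries. The choice of this ID used both that fall and that rise. The call at 10 days (-1.96 ± 0.76, adjusted p = 0.0454) was lost in 9 of 14 alternative fits, with adjusted p from 0.0112 to 0.246. The SMIR change at 2 days was above the LPI change (adjusted p = 0.0211), a difference that rests on the 0 counts in LPI. The ID was chosen for its falls at 2 days, so this p-value is a description as well.

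ENSRNOG00000030462 had 0.409, 14.4, 97.0 and 105 CPM in LPI at 0 day, 41.8, 12.3, 5.36 and 17.9 CPM at 6 hours, 0, 0.243, 0.570 and 0 CPM at 2 days, and 1.26, 34.5, 21.2 and 3.99 CPM at 10 days. The 2 day libraries were below all 6 hour and 10 day libraries, and rat 1 of 0 day (0.409 CPM) lay within their range. The log2 change was -8.14 ± 1.77 (SE) at 2 days against 0 day (adjusted p = 0.0036) and 6.28 ± 1.67 from 2 to 10 days (adjusted p = 0.0146). The choice of this ID used both changes.

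In SMIR ENSRNOG00000030462 had 7.12, 17.6, 15.1 and 57.3 CPM at 0 day, 12.9, 1.73, 1.52 and 2.26 CPM at 6 hours, and 0, 1.95, 1.84 and 1.21 CPM at 2 days. It had 0.746, 0.330, 0.300 and 0 CPM at 10 days and 32.7, 4.24, 58.5 and 7.33 CPM at 32 days. Unlike the median member, it had its lowest fitted change at 10 days. The log2 changes against 0 day were -5.15 ± 1.27 (SE) at 2 days (adjusted p = 0.00333) and -6.88 ± 1.41 at 10 days (adjusted p = 0.00165), and it rose by 6.95 ± 1.41 from 10 to 32 days (adjusted p = 0.00268). The 10 day and 32 day libraries did not overlap. The fall from 2 to 10 days was not called (-1.73 ± 1.24, adjusted p = 0.436).

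A few members rose instead. The 8 called higher at 6 hours in SMIR had log2 changes of 1.52 to 5.31 (median 2.87). In LPI at 6 hours the same 8 had changes of 0.79 to 3.58 (median 1.73), of which 1 was called. By 2 days in SMIR their median against 0 day was 0.14. Between 6 hours and 2 days 6 of the 8 fell in SMIR, beside 52.3% of all members. In LPI 7 of the 8 fell between these times, beside 93.8% of all members. The 8 were taken for high 6 hour values, so a fall from 6 hours partly follows from the choice. Their median at 32 days was 0.04. At 2 days 1 of them was still called higher, with 1.55.

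ENSRNOG00000037085 had the largest of these rises, and was chosen after its values were seen. In SMIR it had 113, 68.1, 143 and 60.5 CPM at 0 day, 3397, 4274, 4270 and 4746 CPM at 6 hours, and 1081, 169, 145 and 154 CPM at 2 days. It had 75.9, 285, 176 and 107 CPM at 10 days and 162, 31.0, 106 and 99.9 CPM at 32 days. All 6 hour libraries were above every other SMIR library, and rat 1 alone was still high at 2 days. The log2 change was 5.31 ± 0.83 (SE) at 6 hours against 0 day (adjusted p = 0.000131) and -4.33 ± 0.79 from 6 hours to 2 days (adjusted p = 0.000567).

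In LPI ENSRNOG00000037085 had 3.23, 117, 30.7 and 301 CPM at 0 day, 802, 754, 555 and 1877 CPM at 6 hours, 5.54, 6.84, 7.41 and 64.7 CPM at 2 days, and 69.7, 233, 32.6 and 18.4 CPM at 10 days. The 6 hour libraries were again above all others. The rise was 3.58 ± 1.25 (SE) at 6 hours (adjusted p = 0.0375, and 0.00718 to 0.0954 over 14 alternative fits, 6 of which lost the call), and the fall from 6 hours to 2 days was -6.18 ± 1.41 (adjusted p = 0.00511). The rise did not differ detectably between models (1.74 ± 1.34, adjusted p = 0.482).

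At 10 days in SMIR 2 members were called higher than at 0 day, with log2 changes of 3.19 and 3.33. Both fell between 10 and 32 days, beside 12.8% of tested genes. They were taken for high 10 day values, so such a fall partly follows from the choice. ENSRNOG00000008536 had the larger rise and was also chosen after its values were seen. It had 15.3, 76.5, 37.9 and 29.3 CPM at 0 day, 204, 16.3, 20.3 and 21.1 CPM at 6 hours, 420, 159, 105 and 201 CPM at 2 days, 427, 238, 1724 and 285 CPM at 10 days, and 38.3, 7.63, 12.5 and 41.0 CPM at 32 days. The 2 day and 10 day libraries were all above the 0 day and 32 day ones. The log2 change was 3.33 ± 1.03 (SE) at 10 days (adjusted p = 0.0159). Without rat 5 of 10 days, the library at 1724 CPM, it was 2.14 and no longer called (adjusted p = 0.0805, and 0.000624 to 0.0495 in the other 13 alternative fits). The change was -4.09 ± 1.07 from 10 to 32 days (adjusted p = 0.0109). At 2 days it was 1.48 ± 0.96 (adjusted p = 0.213), which was not called.

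In LPI ENSRNOG00000008536 had 0, 12.5, 0.615 and 22.2 CPM at 0 day, 7.17, 4.28, 3.38 and 5.30 CPM at 6 hours, 3.37, 2.43, 1.83 and 40.4 CPM at 2 days, and 160, 137, 4.74 and 2.37 CPM at 10 days. At 10 days 2 libraries were high and 2 were within the 0 day range, and the log2 change of 3.07 ± 1.58 (SE) was not called (adjusted p = 0.381). At 2 days it was 1 of 2 members with a fitted change above 0 in LPI, at 0.27 ± 1.47 (adjusted p = 0.90).

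**Figure D5:**
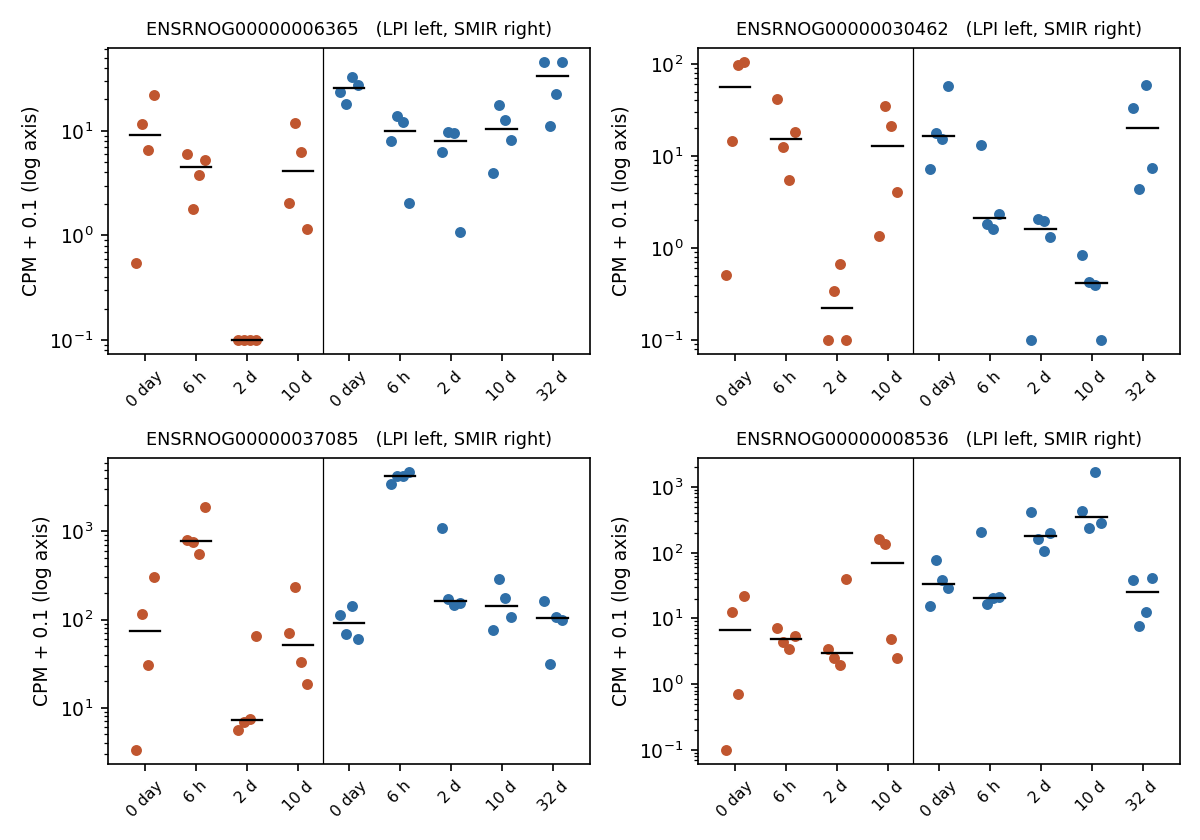
CPM + 0.1 on a log axis of 4 members in each muscle library, LPI on the left and SMIR on the right of each panel, by time; horizontal lines are medians of 4 libraries. The upper pair falls to 0 or near it at 2 days in LPI, ENSRNOG00000037085 stands highest at 6 hours in both models, and ENSRNOG00000008536 stands highest at 10 days in SMIR.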

How the data were processed

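Total RNA of rat skin, muscle and DRG was sequenced from strand-specific libraries, per the labels' protocols. The authors deposited raw counts per gene, which were not normalized, and FPKM values for the same 32623 genes; the submitters' processing notes name FastQC 0.11.2, STAR and StringTie and the builds rn6 and hg38 without a role, while counting settings are not given in the sources used here. Those deposited FPKM served for levels per length and for transcript length.

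Columns were assigned to groups by model, tissue and time code, of which code 1 was taken as 6 hours by elimination; a rat number is that of the column. None of the 54 pairs of muscle libraries within a group agreed within sampling noise (chi-square over degrees of freedom at least 32.6). CPM used all counts of a library. Counts were fitted in edgeR 4.0.16 (R 4.3.3, TMM factors, low-count filter, robust quasi-likelihood), all groups of a model's muscle together, and both models together for the differences; the scripts were tested on simulated counts with known changes. Non-overlap of libraries was read on TMM-scaled CPM. Alternatives were RLE factors, TMM without the members, no filter, DESeq2 1.42.0, only the groups compared, a block by column number, other members and leaving out each library; scaling to the members and the 32 against 2 day comparison were added after seeing the data.

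Members and lists were chosen with earlier results of these data known. The 22 gene lists with symbols could not be applied, since 0 of 47357 reference genes carried an Ensembl ID, and no sequence is shown for the same reason. Printed IDs follow the rule for files without symbols, plus 2 that rose against 0 day. The rule took 2 of the deepest falls among members called lower in both models at 2 days, and 2 with the largest called rise to the last time. Which members share reads with close paralogs is not known without names.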

Additional observations from a re-analysis of the deposited data

Results flagged for a closer look

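Chance gives about 1 in 20 groups with a library that stands apart if values are normally distributed, which was not tested for the shares. Among 27 groups of 4 libraries in the 3 tissues, the member share of 1 library stood apart from the other 3 in 4 groups, all of them DRG. These were rat 4 of SMIR DRG at 0 day (14.9%), rat 1 of SMIR DRG at 6 hours (2.00%), rat 6 of LPI DRG at 10 days (1.27%) and rat 6 of SMIR DRG at 10 days (0.895%). Rat 1 of LPI muscle at 0 day was low, but the other 3 libraries of its group spread too widely for the gap to stand out by this measure.

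Among the 4 printed members, 6 of 35 groups with any spread had 1 library far above the other 3. ENSRNOG00000030462 had 12.9 CPM in rat 1 of SMIR at 6 hours. ENSRNOG00000037085 had 64.7 CPM in rat 5 of LPI at 2 days and 1081 CPM in rat 1 of SMIR at 2 days. ENSRNOG00000008536 had 40.4 CPM in rat 5 of LPI at 2 days, 204 CPM in rat 1 of SMIR at 6 hours and 1724 CPM in rat 5 of SMIR at 10 days. Rat 5 of LPI at 2 days was also the library of its group with the highest member share, 0.685%.

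The models differed by the interaction test in 13 members at 2 days, 12 of them with the SMIR change higher (6.82% of members, beside 5.33% of tested genes) and 1 lower (beside 7.71%). The number ran from 2 to 35 when 1 library was left out. ENSRNOG00000006365 was one of these, with a fitted difference of 8.08 ± 2.27 (SE, edgeR adjusted p = 0.0211) that rests on its 0 counts in LPI at 2 days. It was chosen for its falls at 2 days, so this p-value is a description. Incised area, animals and possibly batches also differed between LPI and SMIR, so the part of surgery type in these differences was not tested.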

How the results depend on the processing

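Of 171 values of the comparisons, shares and order recomputed under another setting, 129 stayed within the limit for their kind. A count, or its percent of members for another gene list, had to stay within 1.5 times, and a 0 at 0. A mean share had to move by less than the SD of its group, and a median depth by less than the SD over members. The share limit was wide in LPI at 0 day (SD 6.62). There 7.20% counted as unmoved at 4.18% without the 10 most abundant members. Leaving out 1 library each kept 177 of 244 values within these limits. The column numbers did not pair the samples: in LPI 6 of 14 and in SMIR 12 of 29 same-numbered pairs correlated over 0.1. With the column number as a replicate block the calls were 101 in LPI from 6 hours to 2 days, 0 in LPI from 2 to 10 days, 2 lower in SMIR at 6 hours, 28 lower in SMIR at 10 days, 26 from 6 hours to 2 days, 8 from 10 to 32 days, 21 from 2 to 32 days, and 7 for the model difference at 2 days. DESeq2 gave 8 lower in SMIR at 6 hours, 11 from 2 to 10 days, 88 from 10 to 32 days, and 1, 46 and 3 for the differences at 6 hours, 2 days and 10 days. With only the groups compared the counts were 10 lower in SMIR at 6 hours, 5 from 10 to 32 days and 73 from 2 to 32 days. Without the low-count filter 5 differed at 2 days. Of 315 genes from LPI alone, SMIR had 50 lower and 27 higher at 6 hours, 122 lower (38.7%, against 60.2% of the 176) and 47 higher at 10 days, and 24 changed from 2 to 10 days; with 4-fold limits 1 and 2 differed at 6 hours and 10 days.

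Relative to the other members, the block gave 0, 19 and 1 in LPI at 6 hours, 2 days and 10 days, where all libraries had given 4, 1 and 0, and 8, 39 and 1 in SMIR, where 15, 70 and 46 had been called. DESeq2 gave 17, 16 and 1 in LPI and 29 in SMIR at 6 hours. No filter gave 2 in LPI at 2 days, and only the groups compared 0 in LPI at 6 hours and 2 days.

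The SMIR share at 0 day was 22.7% of summed FPKM. Without the 10 most abundant members the SMIR shares were 10.4%, 9.02%, 4.11% and 9.37% at 0 day, 6 hours, 2 days and 32 days. With unscaled CPM medians 66 members were lowest at 10 days in SMIR. The median change of the members reversed in LPI at 6 hours under the block (-0.23). Leaving out 1 library at a time it ran from -0.076 (without rat 1 of 0 day) to 1.06 in LPI at 6 hours, from -1.39 to 0.18 (without rat 4 of 0 day) in LPI at 10 days, and from -0.49 to 0.023 (without rat 3 of 32 days) in SMIR at 32 days.

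Leaving out 1 library at a time gave 0 to 1 lower in LPI at 6 hours, 61 to 139 changed in LPI from 2 to 10 days, 2 to 5 lower in SMIR at 6 hours, 45 to 119 lower in SMIR at 10 days, 44 to 121 changed from 6 hours to 2 days, 1 to 5 from 2 to 10 days, 7 to 106 from 10 to 32 days and 62 to 140 from 2 to 32 days. The differences gave 0 to 1, 2 to 35 and 0 to 4 at 6 hours, 2 days and 10 days. Relative to the other members it gave 0 to 6, 0 to 46 and 0 to 1 in LPI, and 6 to 14 and 27 to 52 in SMIR at 6 hours and 10 days. The cause of these moves was not tested.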
